A study of Mus musculus with 6 samples.

Results

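miR-210 was followed through both mature products of its hairpin, the 3p arm (mmu-miR-210-3p) and the 5p arm (mmu-miR-210-5p), in small RNA libraries of mouse iBN cells. The members were all entries of the count table named for the miR-210 hairpin, which are 2 of its 1915 mature names, each with 1 entry, and both are among the 525 names that passed the filter on low counts. The hairpin was selected on the log2 changes of its arms between induced and uninduced cells and on the ratio of the arms, measured in these same libraries. The induced-to-uninduced values of the arms, their ratio and its spread are therefore given as a description, with no test.

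miR-210 is known as the microRNA that is raised by low oxygen in many cell types, where the hypoxia-inducible factor HIF-1 activates its gene. The 3p arm is the one known to act, repressing among others the iron-sulfur cluster scaffold gene Iscu and the ephrin gene Efna3. A microRNA hairpin is cut into a short duplex of a 5p and a 3p strand, of which an Argonaute protein keeps one, while the other is usually broken down. The strand whose 5′ end is less tightly paired tends to be the one kept. Both strands come from one transcript. Because both are counted in the same library, the ratio of their reads there does not depend on how the library is scaled.

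The induced group was iBN cells, which carry a PU.1-inducible system, given doxycycline at 1000 ng/ml over 72 hours (n = 3), and the uninduced group was the same cells without induction (n = 3). PU.1 is the myeloid transcription factor encoded by Spi1, and the series concerns its dose in myeloid differentiation. Both groups grew in suspension in one medium with GM-CSF and fetal bovine serum, and each holds trials 1, 2 and 3 by the labels. No library of cells with doxycycline but without the inducible gene, and none of cells in low oxygen, was analysed here, so effects of the drug and of PU.1 cannot be told apart. Whether a trial is a culture of its own is not stated, so p-values speak only of the variation among these samples, which could be technical.

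Levels are CPM, the counts divided by library size and TMM factor. With 1 entry kept per mature name, the libraries held 8697384 to 13946613 reads. A microRNA without a read could reach 0.215 to 0.345 CPM depending on the library, a limit computed without the TMM factor. Such limits and the intervals below cover counting error only, since no molecular identifiers are described. The cells are labelled as granulocyte-macrophage progenitors. The markers listed for these, miR-223-3p, miR-142a-3p and miR-142a-5p (3 of 3 tested, 0 called), together had 73489 to 91168 CPM in induced and 71001 to 89996 CPM in uninduced libraries. Most of this was miR-142a-5p, with 56233 to 76336 CPM in induced and 53796 to 73988 CPM in uninduced libraries. miR-223-3p had 2799 to 7182 CPM in induced and 4321 to 8490 CPM in uninduced libraries. Of the markers of other cells, 3 of 4 tested epithelial microRNAs rose (edgeR's quasi-likelihood test, Benjamini-Hochberg adjusted p under 0.05), against 18 of all 525 tested (3.43%), with 79.3 to 100.2 CPM over the list in induced and 31.5 to 39.2 CPM in uninduced libraries. With 1 library left out, 1 to 2 of them were called: 1 without the induced library of trial 1, the induced library of trial 2 or the uninduced library of trial 1, and 2 without any of the others. The erythroid list (1 of 3 members tested, not called) summed to 37.5 to 40.1 CPM in induced and 22.9 to 36.5 CPM in uninduced libraries, the stromal list (2 of 4 tested, neither called) to 109.5 to 168 CPM in induced and 163 to 201 CPM in uninduced libraries, and the endothelial list (2 of 2 tested, neither called) to 605 to 951 CPM in induced and 588 to 920 CPM in uninduced libraries. With the trial as a block in the model both tested stromal markers were lower, miR-143-3p (edgeR adjusted p = 0.0082) and miR-145a-5p (edgeR adjusted p = 0.042), against 58 of all 525 lower under that block (11.0%), and the counts of the other marker lists did not change. The liver, neural and muscle lists had no tested member and at most 1.46 CPM in any library, and the erythroid miR-144-3p, the stromal miR-214-3p and the neural miR-124-3p had 0 reads in all 6. The part of these markers in the miR-210 values was not tested. In such bulk libraries, fewer cells that hold a microRNA and less of it per cell cannot be told apart.

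The sequences of the arms are shown first because the results turn on which of them was counted. They are from RefSeq on GRCm38.p6, the assembly also called mm10, with the seed (bases 2 to 8) in capitals.
miR-210-3p: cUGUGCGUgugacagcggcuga
miR-210-5p: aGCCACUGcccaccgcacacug
Each arm has 22 bases, of which 63.6% are G or C in the 3p and 68.2% in the 5p arm. Of 1679 mature names in the RefSeq table, 0 others share the seed of the 3p arm and 0 others that of the 5p arm, so neither arm stands in a seed family there.

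The hairpin that holds them is printed with both arms in capitals, the 5p arm first, to show the 16 bases that separate them.
Mir210 hairpin: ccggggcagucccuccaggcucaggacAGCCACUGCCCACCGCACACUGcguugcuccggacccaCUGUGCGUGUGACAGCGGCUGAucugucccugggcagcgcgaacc
It lies at chr7:141221384-141221493 on the minus strand, with the 3p arm at chr7:141221407-141221428 and the 5p arm at chr7:141221445-141221466. In the GENCODE annotation of GRCm38 it overlaps 0 other genes and lies between Rassf7, 2726 bases away, and Phrf1, 7291 bases away, both on the other strand. In the structure of lowest free energy that RNAfold gives for this hairpin, 16 base pairs join the arms, of which 11 are G-C and 5 are A-U. Of the first 4 bases of the 3p arm 3 were paired, 1 of them G-C, and of the first 4 bases of the 5p arm 4 were paired, 3 of them G-C. In this predicted fold the 5′ end of the 3p arm is thus the one with fewer and weaker pairs.

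The 3p arm, the abundant product, was lower in induced cells in each trial. miR-210-3p had 899, 1039 and 828 CPM in the induced libraries of trials 1, 2 and 3, against 1533, 1537 and 1790 CPM in the uninduced ones. The lowest uninduced library lay above the highest induced one, so the groups did not overlap, which held in the same direction for 61 of the 525 microRNAs tested (11.6%). The mean was 922 ± 108 CPM in induced and 1620 ± 147 CPM in uninduced cells (SD, n = 3 each), 43.1% lower with induction, and the fitted log2 change was -0.81 (SE 0.13). By level the 3p arm stood at place 67 of the 525, and by log2 change it was the 9th lowest of 323 microRNAs with at least 10 CPM on average. Within trials the log2 difference was -0.77, -0.56 and -1.11 for trials 1, 2 and 3, so trial 3 had both the highest uninduced and the lowest induced level.

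The 5p arm did not follow this order. In trials 1, 2 and 3 miR-210-5p had 225, 92.5 and 251 CPM with induction, against 176, 58.5 and 337 CPM without it. The groups overlapped almost completely, and the libraries fell by trial instead: trial 2 was lowest and trial 3 highest in both groups. The mean was 190 ± 85.0 CPM in induced and 191 ± 140 CPM in uninduced cells (SD, n = 3 each), with a fitted log2 change of -0.01 (SE 0.69, from the model without the trial). Within trials the log2 difference was 0.35, 0.66 and -0.43, higher with induction in trials 1 and 2 and lower in trial 3. The SD of these differences was 0.56 (n = 3 trials), and with the trial as a block in the model the log2 change was 0.18.

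**Figure D1:**
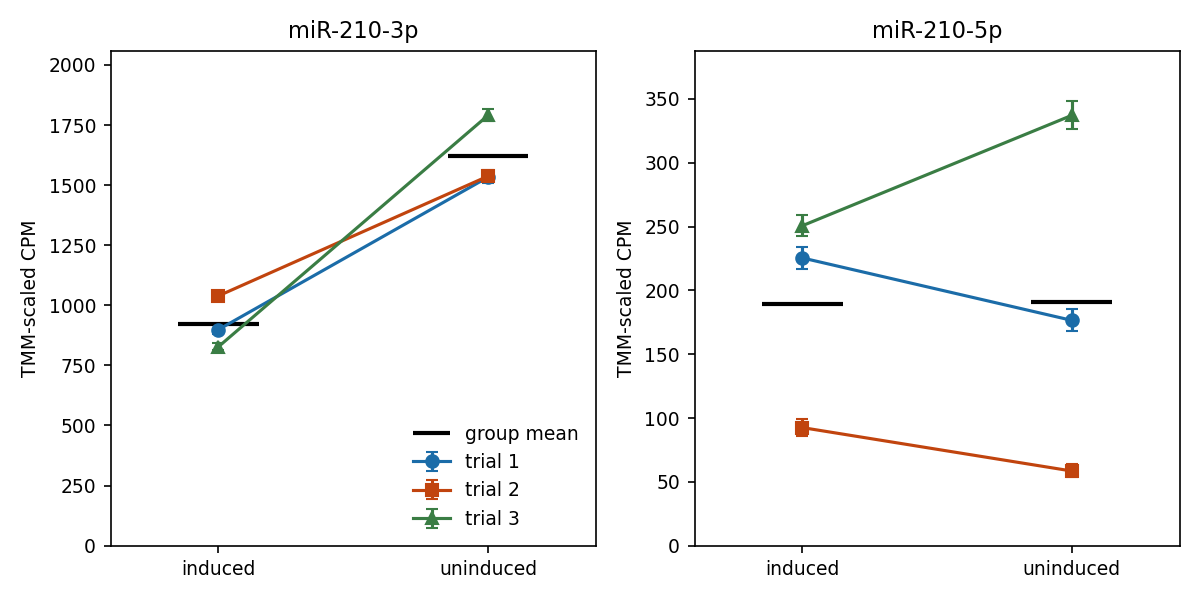
TMM-scaled CPM of miR-210-3p (left) and miR-210-5p (right) in induced and uninduced libraries, with a line joining the libraries of each trial, exact 95% Poisson intervals as error bars and the group means of 3 libraries as black bars. All 3 lines of the 3p arm are lower in induced cells (828 to 1039 CPM, against 1533 to 1790 CPM in uninduced cells), while those of the 5p arm are ordered by trial and do not share a direction.

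The difference between trials in the 5p arm was far beyond counting error. The lowest value, in the uninduced library of trial 2, rested on 526 reads (58.5 CPM, 95% exact Poisson interval 53.6 to 63.7), and the highest, in the uninduced library of trial 3, on 3682 reads (337 CPM, 326 to 348). Averaged over induction on the log2 scale, the trials spanned 3.95-fold in the 5p arm and 1.08-fold in the 3p arm. Among the 323 microRNAs with at least 10 CPM, the log2 range between trial means had a median of 0.30, and the 5p arm at 1.98 held the 2nd place from the top while the 3p arm at 0.11 held place 294. Trial 2 lay 1.71 below the mean of the other trials on the log2 scale for the 5p arm, the lowest value of the 323. Library depth moved with the 5p arm: in both groups trial 2 had the fewest reads in all (9089319 induced, 8697384 uninduced) and trial 3 the most (13946613 induced, 11714847 uninduced), the same order as the 5p CPM. Its part in the 5p values was not tested.

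Because the arms moved differently, the share of miR-210 reads that came from the 5p arm was higher in the induced library of every trial. In the induced libraries of trials 1, 2 and 3 the 5p share was 20.0% (95% Clopper-Pearson interval 19.4 to 20.7), 8.17% (7.65 to 8.72) and 23.2% (22.6 to 23.9). In the uninduced libraries it was 10.3% (9.86 to 10.8), 3.66% (3.36 to 3.98) and 15.8% (15.4 to 16.3). These intervals cover counting error only, so their separation within each trial is no test of induction. The groups overlapped, since the induced library of trial 2 lay below the uninduced libraries of trials 1 and 3. The mean share was 17.2% ± 7.94 in induced and 9.95% ± 6.10 in uninduced cells (SD, n = 3 each). The summed level of both arms was 1112 ± 28.9 CPM in induced and 1811 ± 280 CPM in uninduced cells (SD, n = 3 each). These groups did not overlap, as held in the same direction for 61 of the 525 single microRNAs tested (11.6%). Most of the sum was 3p reads, so it repeats the difference of the 3p arm.

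**Figure D2:**
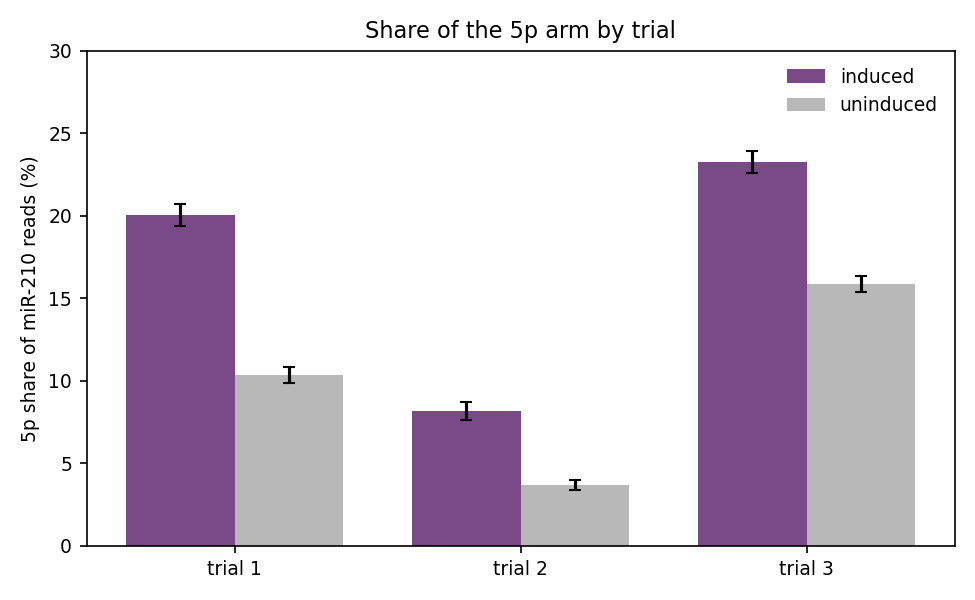
Percentage of miR-210 reads that belong to the 5p arm, by trial, in induced (left bar of each pair) and uninduced (right bar) libraries, with 95% Clopper-Pearson intervals that cover counting error only. The induced bar is the higher one in each pair (20.0, 8.17 and 23.2% in induced libraries, against 10.3, 3.66 and 15.8% in uninduced libraries), and trial 2 is lowest in both groups.

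As a ratio, the 3p arm had 3.99, 11.2 and 3.30 reads for each read of the 5p arm in the induced libraries of trials 1, 2 and 3, and 8.69, 26.3 and 5.31 in the uninduced ones. On the log2 scale, with 0.5 added to each count, the arm ratio averaged 2.40 ± 0.95 in induced and 3.41 ± 1.18 in uninduced cells (SD, n = 3 each), a difference of -1.01 that lies within the spread of the groups. Paired by trial, the difference was -1.12, -1.23 and -0.69, with a mean of -1.01 and an SD over the 3 trials of 0.29. The ratio was thus lower with induction in 3 of 3 trials, as it was for 17 of the 81 hairpins compared (21.0%). The size of the difference depended on single libraries: it was -0.36 without the uninduced library of trial 2, -1.56 without the induced library of trial 2 and -0.67 without the induced library of trial 3, while leaving out both libraries of trial 2 gave -0.90.

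The miR-210 hairpin was then set beside the 80 other hairpins whose arms each averaged at least 10 CPM and have 1 entry in the table. Not all of these are separate measurements. The 3p arms of miR-466a, miR-466e and miR-466p had nearly equal CPM in every library, and the 5p arms of miR-466d and miR-466n had equal CPM. The 3p arm was the more abundant one in 38 of the 81 and the 5p arm in 43, and miR-210 was 16th from the 3p end by its mean ratio. Its difference between the groups was the largest of the 81 in size and the only one of at least 2-fold (1 of 81, 1.23%). The median size was 0.13 on the log2 scale, and the next in size was miR-98, at 0.50. The spread of its ratio within groups was also the widest, with a pooled SD of 1.07 against a median of 0.23, and so was the range of its trial means, 2.04 against 0.41. The next widest spreads were those of let-7b (0.59), miR-223 (0.58) and miR-15b (0.56). The wide spread of miR-210 rests on trial 2: without both of its libraries the pooled SD was 0.38, place 15 of 81. By size of difference it remained at place 1 there, and at place 7 without the uninduced library of trial 2 alone.

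The hairpins nearest to it moved less but with narrower spread. miR-212, the partner of miR-132 in one transcript, had a difference in log2 arm ratio of -0.43 with a pooled SD of 0.22, followed by miR-148a (-0.34), miR-467d (-0.32) and miR-152 (-0.30). miR-467d belongs to a family of near-identical copies. Its 3p arm had equal or nearly equal CPM to miR-467a-3p in every library, so the same reads appear under both names. In the other direction stood miR-98 (0.50), miR-222 (0.34), miR-27a (0.32), miR-18a (0.30) and miR-425 (0.30). The arm ratios of the groups did not overlap for 1 hairpin on the lower side (miR-212, 1.23%) and for 2 on the higher side (miR-98 and miR-425, 2.47%). miR-210 is not among these, because its trials differed more than its groups. Of the 81 hairpins, edgeR's quasi-likelihood test of the arm ratio called 0 at an adjusted p of 0.05 (0%), with 1 at an unadjusted p under 0.05 (1.23%) and 0 by limma. With the trial as a block edgeR called 11 (13.6%). That count is over all 81 hairpins compared. No call or p is given for miR-210 itself, because it was selected on these values. Of the others named, that block called miR-148a, miR-467d and miR-152 lower (edgeR adjusted p between 1.7e-05 and 0.027). It called miR-98, miR-222, miR-27a and miR-18a higher (edgeR adjusted p between 8.8e-05 and 0.024). miR-212 (edgeR adjusted p = 0.073) and miR-425 (0.062) were not called.

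**Figure D3:**
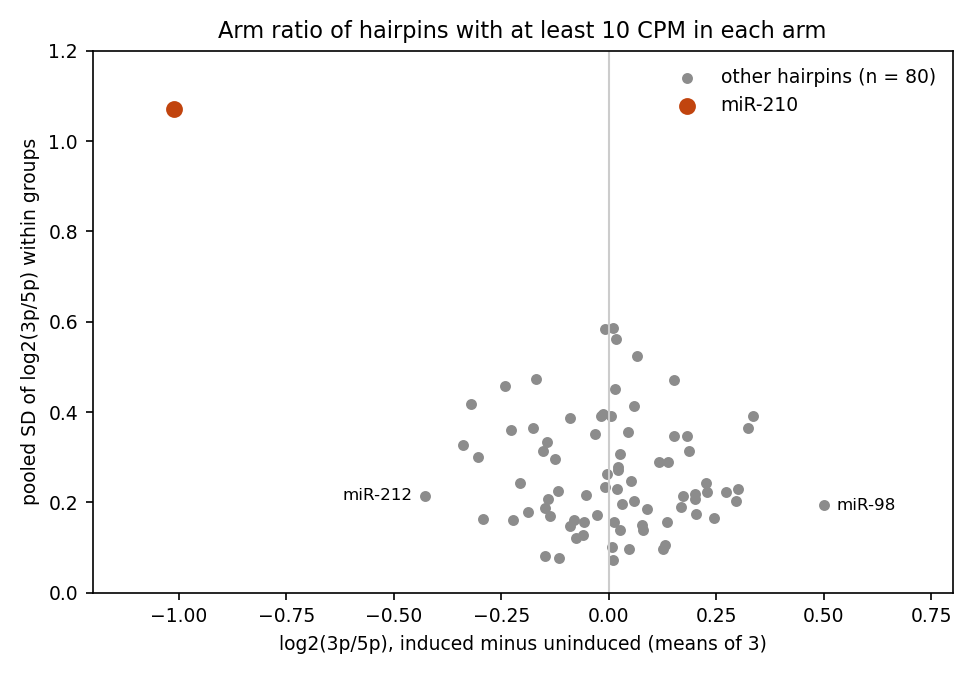
Each point is a hairpin with at least 10 CPM in each arm, with the induced minus uninduced difference of its mean log2 3p to 5p ratio across and the pooled SD of that ratio within groups (n = 3 each) up. miR-210 lies apart from the 80 other hairpins on both axes, at -1.01 and 1.07, and miR-212 (-0.43) and miR-98 (0.50) are the next farthest in each direction.

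The profiles of the arms over the 6 libraries had little in common. Pearson's r between the log2 CPM of the arms was -0.11 over the 6 libraries, a description without a test. Over the 81 hairpins r between the arms ranged from -0.91 to 0.97 with a median of 0.39 and was below 0 for 19, and miR-210 was 16th from the lowest, so a low r between arms was not particular to it. All such values share the same 6 libraries and their scaling.

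Of the 5 microRNAs most like the 3p arm across the 6 libraries, 2 were called lower in induced cells, against 14 of all 525 (2.67%). The 5 were chosen for following an arm whose levels separate these same groups. Calls among them thus follow in part from the choice and add no separate result. miR-378c had an r of 0.98 with miR-210-3p, miR-10b-5p 0.95, miR-669l-5p 0.92, let-7j 0.90 and miR-199a-3p 0.89. miR-10b-5p, encoded among the Hoxd genes, fell (log2 change -2.22, SE 0.16, edgeR adjusted p = 2.4e-05), and so did miR-199a-3p (-0.69, SE 0.15, edgeR adjusted p = 0.028). The call of miR-199a-3p was lost without the induced library of trial 1 or 2 or the uninduced library of trial 1 or 2, with edgeR adjusted p between 0.074 and 0.17. The other 3 did not pass, with log2 changes between -0.28 and -0.17, but with the trial as a block miR-378c (edgeR adjusted p = 0.018) and let-7j (edgeR adjusted p = 0.0355) were lower as well, and miR-669l-5p was not called (edgeR adjusted p = 0.18). With the group means subtracted, r stayed at 0.81 for miR-378c and lay between -0.12 and 0.15 for the other 4, which followed the groups but not the differences between trials. miR-378c, miR-669l-5p and let-7j have close relatives of similar sequence among the microRNAs, so the counting could split or share their reads. miR-199a-3p shares its sequence with miR-199b-3p. Both had equal or nearly equal CPM in every library, so the same reads appear under both names.

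The microRNAs most like the 5p arm followed the trials, which their choice by likeness to an arm ordered by trial made likely. miR-128-1-5p had an r of 0.97 with miR-210-5p, let-7b-3p 0.95, miR-151-5p 0.95, miR-191-3p 0.94 and miR-671-3p 0.94, and with the group means subtracted r was 0.95 to 0.99 for all 5. Each was lower in trial 2, by 0.88 for miR-128-1-5p, 0.55 for let-7b-3p, 0.33 for miR-151-5p, 0.34 for miR-191-3p and 0.62 for miR-671-3p relative to the mean of the other trials on the log2 scale, against 1.71 for miR-210-5p. In trials 1, 2 and 3 miR-128-1-5p had 36.8, 22.3 and 41.0 CPM with induction and 36.8, 21.8 and 49.8 CPM without it, the order by trial that miR-210-5p had in both groups. miR-671-3p did not have that full order, since with induction trial 1 (282 CPM) lay above trial 3 (266 CPM). None of the 5 passed the test between induced and uninduced cells (edgeR adjusted p between 0.610 and 0.861), against 32 of all 525 (6.10%). This too follows in part from their choice.

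Other microRNAs linked to hypoxia were read from lists whose membership comes mostly from reports on human cells. Of 15 microRNAs reported as raised by hypoxia, all tested, 1 fell, miR-23b-3p, and 0 rose in edgeR's quasi-likelihood test, against 14 lower (2.67%) and 18 higher (3.43%) of all 525. The median log2 change of the list was -0.11, against 0.015 over all tested. miR-23b-3p, a member of the miR-23, miR-27 and miR-24 clusters, had 866 ± 129 CPM in induced and 1555 ± 412 CPM in uninduced cells (SD, n = 3 each), and its log2 change was -0.84 (SE 0.20, edgeR adjusted p = 0.035). Its direction and size are close to those of miR-210-3p, but 5 of the 6 fits with 1 library omitted did not call it (highest edgeR adjusted p 0.141, with the uninduced library of trial 1 omitted), while it held without the uninduced library of trial 3. An unadjusted p under 0.05 was reached by 3 lower and 2 higher members of the 15, against 49 lower (9.33%) and 60 higher (11.4%) of all 525, and DESeq2 and limma each called 0 of the list as higher.

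The members of that list closest to the threshold went both ways. miR-181a-1-3p, the minor arm of a miR-181 hairpin, had a log2 change of -0.43 (SE 0.13), miR-322-5p, the mouse form of miR-424, one of 0.45 (SE 0.12), and miR-21a-5p, a microRNA of inflammation and growth, one of 0.54 (SE 0.16), with edgeR adjusted p of 0.084, 0.056 and 0.075. With the trial as a block the list had 3 lower members, miR-23b-3p (edgeR adjusted p = 1.1e-04), miR-181a-1-3p (0.0044) and miR-181a-5p (0.025), and 1 higher, miR-322-5p (0.0034), against 58 lower (11.0%) and 56 higher (10.7%) of all 525. miR-26a-5p (0.02, SE 0.10), miR-26b-5p (0.04, SE 0.10), miR-107-3p (0.04, SE 0.12) and miR-24-3p (-0.07, SE 0.13) had small changes with adjusted p of 0.809 or more in edgeR.

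Of 10 microRNAs reported to target HIF-1α or its regulators, 9 were tested and 0 passed edgeR's quasi-likelihood test in either direction, against 32 of all 525 (6.10%). At an unadjusted p under 0.05 there were 1 lower and 1 higher member, against 49 lower (9.33%) and 60 higher (11.4%) of all 525. The lower one was miR-31-5p (log2 change -0.996, SE 0.36, 181 reads in all) and the higher one miR-429-3p (1.26, SE 0.40). DESeq2 and limma called 0 of the list. The median log2 change of the 9 tested was -0.21. The members of the miR-17 family clusters lay below 0, with miR-17-5p at -0.21 (SE 0.11), miR-18a-5p at -0.31 (SE 0.15) and miR-20a-5p at -0.29 (SE 0.16). With the trial as a block miR-18a-5p and miR-20a-5p were lower (edgeR adjusted p = 0.018 each) and miR-429-3p, of the epithelial miR-200 family, was higher (edgeR adjusted p = 0.043), against 11.0% lower and 10.7% higher over all tested under that block. miR-429-3p rests on 66 reads in all 6 libraries and averaged 1.37 CPM in induced and 0.57 CPM in uninduced cells. miR-107-3p and miR-155-5p are in both lists, and miR-199a-5p, with 25 reads in all, was too rare to test.

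**Figure D4:**
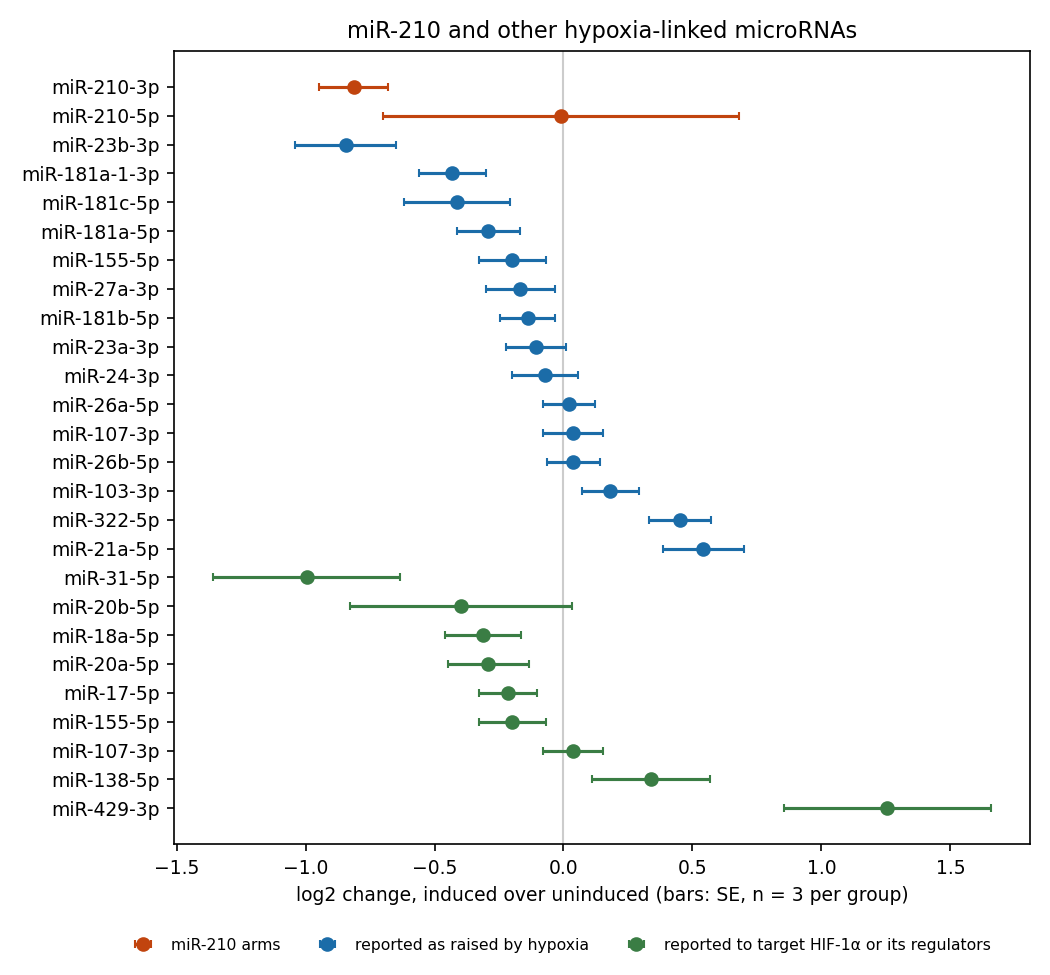
Fitted log2 change, induced over uninduced, with its SE (n = 3 per group) for the miR-210 arms, for 15 microRNAs reported as raised by hypoxia and for the 9 tested microRNAs reported to target HIF-1α or its regulators, each list in the order of its values. miR-210-3p (-0.81) and miR-23b-3p (-0.84) have similar values, while miR-210-5p has the value -0.01 with an SE of 0.69.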

How the data were processed

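Small RNA libraries of 3 induced and 3 uninduced samples of mouse iBN cells were analysed. The mm10 build, Trim Galore 0.4.0 and DESeq2 (version given as 2.1.8.0) are named per the submitters' processing notes, and alignment to miRBase by the series' design text. The counter, the release of miRBase and how multiply matching reads were handled are not stated. The authors deposited raw read counts in a table of 2061 entries with 1915 mature names, and CPM values that equal the counts scaled to the sum of all entries, within 0.005. Where a name had several entries, that with most reads was used. Libraries of a group differed beyond sampling noise (lowest chi-square over its degrees of freedom 98.7).

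Levels are TMM-scaled CPM. Groups were compared by the two-sided quasi-likelihood test of edgeR 4.0.16 under R 4.3.3 (filterByExpr, TMM, robust glmQLFit), with p-values adjusted over 525 names by Benjamini-Hochberg and a threshold of 0.05, and the SE was taken from the F value. Arms were paired by name, with at least 10 CPM in each, and the arm ratio was tested in edgeR with terms for library, arm and arm by group. The steps were tested on simulated data. Alternatives used DESeq2 1.42.0 and limma 3.58.1 (log2 of deposited CPM plus 1, and log2 arm ratios). RNAfold 2.7.2 gave the hairpin structure.

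The labels number trials 1, 2 and 3 in both groups. After subtraction of group means, the log2 CPM of same-numbered libraries correlated across microRNAs by 0.33, 0.45 and 0.53, so differences are also given within trials. The main tests had no term for the trial, and the fit with the trial as a block is given where it changed a call. Named microRNAs are the miR-210 arms, members of the 2 hypoxia lists, the 5 microRNAs most like each arm by Pearson's r of log2 CPM, and the 5 hairpins with the largest arm ratio difference in each direction. let-7b, miR-223, miR-15b and the microRNAs with shared reads were named after their values were seen. The 8 marker lists, the hypoxia lists, the members and the tests were chosen with earlier results of these data known.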

Additional observations from a re-analysis of the deposited data

How the results depend on the processing

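The log2 change of miR-210-3p lay between -0.83 and -0.79 under other scalings, filters, entries and tools and between -0.95 and -0.68 with libraries left out, that of miR-210-5p between -0.02 and 0.22 and between -0.43 and 0.69, and the arm ratio difference between -1.01 and -0.999 and between -1.56 and -0.36. With the replicate block, which adds the trial to the model, 114 microRNAs were called in place of 32, 11 hairpins in place of 0, 3 lower and 1 higher microRNA of the hypoxia-raised list and 2 lower and 1 higher of the HIF-targeting list. That block moved the arm ratio difference only to -0.999. The epithelial markers had 2 calls in place of 3 under each other scaling, filter, entry and tool. Without a filter 1 hypoxia-raised member was higher and 1 HIF-targeting member lower. With no scaling factors, or with limma on the deposited CPM, 0 hypoxia-raised members were lower. With 1 library or both libraries of a trial left out, 11 to 41 microRNAs were called, 0 to 1 hypoxia-raised members lower and 0 to 2 higher, and 8 to 21 hairpins did not overlap between the groups, since fewer libraries overlap less often. In those fits small changes took both signs, from -0.192 to 0.022 for miR-24-3p, -0.072 to 0.053 for miR-26a-5p, -0.041 to 0.073 for miR-26b-5p, -0.028 to 0.069 for miR-107-3p, -0.746 to 0.074 for miR-20b-5p, -0.361 to 0.191 for miR-128-1-5p, -0.284 to 0.13 for let-7b-3p and -0.075 to 0.199 for miR-151-5p. With group means subtracted, r with miR-210-3p was -0.047 for miR-10b-5p and -0.116 for miR-199a-3p. Unless stated, the cause was not tested. Leaving out both libraries of a trial and taking all arm pairs by name were chosen after seeing the data, and each hairpin's own entries were not run, because the table names no precursors.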
